A study of Homo sapiens with 6 samples.

Results

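The 10 genes described here encode cofactors and mitotic substrates of the anaphase-promoting complex or cyclosome (APC/C): CDC20, FZR1, UBE2C, UBE2S, PTTG1, CCNB1, CCNB2, CCNA2, FBXO5 and BUB1B. They were found by symbol among the 78304 genes of 1 table of expression values, in which each symbol occurred once, and all 10 passed a filter on low values that left 14275 genes. They were chosen by their TPM in this comparison, in which CDC20 and PTTG1 did not fall with other mitotic genes, so their values are given as a description without a test. The RNA came from Huh7, a long-established human liver cancer cell line labelled as wild type, and was sequenced after poly(A) selection. Cells were seeded for 24 h and then received either the vehicle DMSO or the compound 16'-DEC for 24 h, with 3 libraries in each group. The labels name the compound by this code and state no dose. The labels do not say whether the 3 libraries of a group came from separate cultures, so every spread given may be technical.

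The APC/C is a ubiquitin ligase of many subunits that marks mitotic proteins for destruction by the proteasome and so drives the exit from mitosis. CDC20 activates it at the metaphase to anaphase transition, and FZR1 (CDH1) activates it from late mitosis through the G1 phase. The ubiquitin-conjugating enzyme UBE2C starts the ubiquitin chains and UBE2S extends them. FBXO5 (EMI1) inhibits the complex in S and G2 phase, and BUB1B (BUBR1) holds CDC20 in the mitotic checkpoint complex until the chromosomes are attached. Among the substrates, securin (PTTG1) restrains the protease that cleaves cohesin, and the cyclins CCNB1, CCNB2 and CCNA2 activate the kinases CDK1 and CDK2.

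Values are TPM (transcript abundances), which are scaled per gene length and to the same total in every library. They allow levels of different genes to be set side by side but carry no absolute depth. Between 14936 and 15118 genes reached 1 TPM in the DMSO libraries, and between 13131 and 13459 in the 16'-DEC libraries. All 8 hepatic markers examined, among them ALB, AFP and HNF4A, were above 1 TPM in every library, but the levels of several differed between the groups. AFP, APOB and FGB had lower means with 16'-DEC (965 against 2721 TPM for AFP), ALB was at 4370 against 4931 TPM, and APOA2 was higher (12700 against 7692 TPM). The 8 summed to 18302 to 18881 TPM in DMSO and 20820.0 to 21871 TPM with 16'-DEC. Of 7 markers of blood, stromal and endothelial cells, CD3E was listed at 0 throughout and only CD68, which many cell types express, was above 1 TPM in every library. These 7 summed to 16.8 to 19.0 TPM in DMSO and 35.5 to 45.2 TPM with 16'-DEC, nearly all of it CD68, and their part in the results was not tested. Across all tested genes the median difference between 16'-DEC and DMSO was -0.31 on the log2(TPM + 1) scale, which is the scale of every log2 difference below. It was -0.01 after median-of-ratios scaling and 0.11 after quantile normalization. Differences of single genes should be read against these shifts.

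Promoter sequences from RefSeq (GRCh38.p14) were matched by symbol for 9 of the genes, all but UBE2C. They are shown because the genes share, to different degrees, short motifs that are known from cell cycle promoters. TTTGAA is the usual core of the CHR element, a promoter element of G2/M genes, and CTTGAA and TTCGAA are variants of it. CCAAT is the box bound by the factor NF-Y, and TTTGGCGC and TTTCGCGC are forms of the E2F site. Each was searched on both strands in the 300 bases from 250 before to 50 after the start. In the 120 bases before the start, FZR1 and UBE2S held none of these motifs, and their stretches are not printed. The 120 bases before the start of 7 genes follow, each 5′ to 3′ on the strand of the gene, with matches to any of these motifs on either strand in capitals.
CDC20: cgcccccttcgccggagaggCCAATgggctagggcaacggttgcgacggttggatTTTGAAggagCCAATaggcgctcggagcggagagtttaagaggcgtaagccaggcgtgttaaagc
PTTG1: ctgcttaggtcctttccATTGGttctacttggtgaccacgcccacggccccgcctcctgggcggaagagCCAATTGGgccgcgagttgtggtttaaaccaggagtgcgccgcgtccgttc
CCNB1: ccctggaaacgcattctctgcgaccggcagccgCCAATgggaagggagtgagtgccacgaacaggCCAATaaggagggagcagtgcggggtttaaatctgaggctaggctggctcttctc
CCNB2: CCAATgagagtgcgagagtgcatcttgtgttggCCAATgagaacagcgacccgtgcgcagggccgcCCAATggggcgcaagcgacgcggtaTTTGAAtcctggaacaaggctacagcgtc
CCNA2: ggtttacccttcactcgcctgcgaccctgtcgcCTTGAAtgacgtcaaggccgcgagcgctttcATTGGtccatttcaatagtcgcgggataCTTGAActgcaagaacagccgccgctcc
FBXO5: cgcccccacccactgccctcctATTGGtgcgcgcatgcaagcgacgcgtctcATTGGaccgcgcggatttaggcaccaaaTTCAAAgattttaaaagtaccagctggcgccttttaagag
BUB1B: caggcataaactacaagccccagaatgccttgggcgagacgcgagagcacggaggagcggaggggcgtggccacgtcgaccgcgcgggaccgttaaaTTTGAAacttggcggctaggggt

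These stretches lie at chr1:43358861-43358980 (plus strand), chr5:160421735-160421854 (plus), chr5:69167030-69167149 (plus), chr15:59105026-59105145 (plus), chr4:121823884-121824003 (minus), chr6:152983042-152983161 (minus) and chr15:40160949-40161068 (plus). Counted as the first base relative to the start, CDC20 has TTTGAA at -65 between CCAAT boxes at -100 and -55. CCNB2 has TTTGAA at -29, BUB1B at -23 and FBXO5 at -40 on the opposite strand. CCNA2 has the variant CTTGAA at -28 and at -87. PTTG1 and CCNB1 held CCAAT and none of the 3 CHR forms searched. Further forms of the CHR were not searched, so the absence of a CHR element from these genes is not shown. In PTTG1 the CCAAT at -51 and its reverse at -48 overlap, as do those at -141 and -138 in FBXO5. Over the 300 bases, 5 of 9 genes held TTTGAA, against 15.2% of all 35116 promoters in the table and 10.5% of those of tested genes. The fifth was FZR1, at -226. CTTGAA was found in 1 of 9 (11.2% of all promoters) and CCAAT in 7 of 9 (34.6%). None of the 9 held TTCGAA (1.45% of all promoters), TTTGGCGC (0.652%) or TTTCGCGC (0.515%). CDC20 held TTTGAA and 2 CCAAT boxes, and FBXO5 and CCNB2 each held TTTGAA and 4 CCAAT boxes, 2 of which overlap in FBXO5. Whether these motifs bear on the levels of the genes was not tested. A match is a description of the letters only.

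Both coactivator genes were higher with 16'-DEC in the TPM as deposited, but CDC20 was not after the adjustment for GC content and length given below (-0.0042). CDC20 (ENSG00000117399, chromosome 1, 43358955 to 43363203; GRCh38 and GENCODE 29, as for all gene positions) was at 34.1, 37.5 and 41.1 TPM in DMSO and at 48.1, 43.3 and 45.9 TPM with 16'-DEC. The groups did not overlap, though the highest DMSO library lay close to the lowest treated one, and the difference was 0.28 ± 0.0873 (log2 difference ± SE from the spread of the 3 libraries per group, as for each gene below). FZR1 (ENSG00000105325, chromosome 19, 3506273 to 3538330) was at 7.99, 7.38 and 9.80 TPM in DMSO and at 18.6, 16.8 and 11.9 TPM with 16'-DEC. All 3 treated libraries were above the DMSO libraries, and 16'-DEC replicate 3 was well below the other 2. The difference was 0.82 ± 0.212, and 1.00 without that replicate. FZR1 was the least abundant of the 10 genes in DMSO. CDC20 exceeded it by a ratio of 4.26, 5.08 and 4.19 in the DMSO libraries and of 2.59, 2.57 and 3.84 in the treated ones, without overlap. Such a ratio within a library does not change when a whole library is rescaled.

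Of the ubiquitin-conjugating enzymes, 1 was lower and 1 higher in the TPM as deposited. UBE2C (ENSG00000175063, chromosome 20, 45812576 to 45816957), which starts the chains, was at 92.5, 103.5 and 92.7 TPM in DMSO and at 80.8, 72.2 and 81.4 TPM with 16'-DEC. All treated libraries were lower (-0.30 ± 0.0767), but the difference was 0.050 after median-of-ratios scaling. UBE2S (ENSG00000108106, chromosome 19, 55399745 to 55407777), which extends the chains, was at 15.3, 17.7 and 24.6 TPM in DMSO and at 30.6, 28.8 and 30.1 TPM with 16'-DEC. The treated libraries lay close together and above the DMSO libraries, among which replicate 3 was the highest (0.63 ± 0.194). The ratio of UBE2C to UBE2S was 6.04, 5.84 and 3.76 in DMSO and 2.64, 2.51 and 2.70 with 16'-DEC, a mean of 5.21 ± 1.26 against 2.62 ± 0.0980 (SD, n = 3 each).

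The genes of the inhibitor and of the checkpoint protein had the largest differences of the 10. FBXO5 (ENSG00000112029, chromosome 6, 152970519 to 152983579) was at 34.2, 31.7 and 32.6 TPM in DMSO and at 3.90, 3.81 and 3.63 TPM with 16'-DEC. The mean was 8.69 times lower with 16'-DEC, the libraries of each group lay close together, and the difference was -2.82 ± 0.0393. Of all tested genes, 0.266% had a lower value. BUB1B (ENSG00000156970, chromosome 15, 40161023 to 40221136) was at 32.7, 27.7 and 31.8 TPM in DMSO and at 7.18, 8.28 and 5.68 TPM with 16'-DEC. It was 4.36 times lower (-1.99 ± 0.156), and 4.00% of tested genes had a lower value. In bulk RNA, fewer cells in the phases that express these genes and less RNA per cell cannot be told apart.

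**Figure D1:**
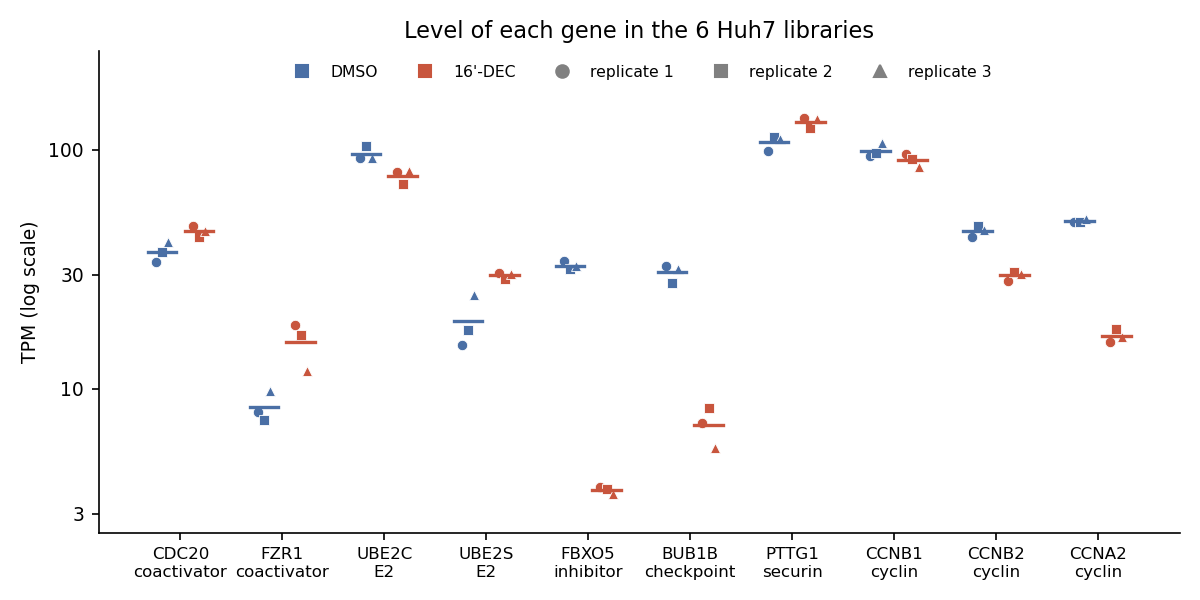
TPM (log axis) of the 10 genes in each library, by role; symbols are the replicates, lines the mean of 3 libraries, blue for DMSO and red for 16'-DEC. In TPM as deposited FBXO5 and BUB1B lie furthest apart between the groups, CDC20 (which turns to -0.0042 on the log2 scale after GC adjustment), PTTG1, FZR1 and UBE2S are higher with 16'-DEC, and CCNB1 overlaps.

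Relative to its inhibitors, CDC20 was more abundant in every treated library. The ratio of CDC20 to FBXO5 was 0.997, 1.18 and 1.26 in DMSO and 12.3, 11.4 and 12.6 with 16'-DEC, a mean ratio 10.6 times higher. The ratio of CDC20 to BUB1B was 1.04, 1.35 and 1.29 in DMSO and 6.69, 5.22 and 8.07 with 16'-DEC. CDC20 was higher and FBXO5 and BUB1B lower in all treated libraries, so the separation of these ratios follows from values that chose the genes. These are ratios of RNA, and protein was not measured. FZR1, also inhibited by FBXO5, was at 0.234, 0.233 and 0.3002 of the FBXO5 level in DMSO and at 4.77, 4.41 and 3.29 times that level with 16'-DEC. The adjustment for GC content and length given below shrank these differences. On the log2(TPM + 1) scale the difference of CDC20 minus that of FBXO5 was 3.10 as deposited and 1.54 after adjustment, that of CDC20 minus BUB1B 2.27 and 1.16, and that of FZR1 minus FBXO5 3.65 and 2.24.

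Among the substrates, securin was higher, cyclin B1 overlapped between the groups, and cyclins B2 and A2 were lower. PTTG1 (ENSG00000164611, chromosome 5, 160421822 to 160428744) was at 99.3, 113.4 and 111.3 TPM in DMSO and at 136.0, 123.9 and 134.2 TPM with 16'-DEC (0.28 ± 0.0726). All 3 treated libraries were above the DMSO libraries, and PTTG1 had the highest mean of the 10 genes in both groups. CCNB1 (ENSG00000134057, chromosome 5, 69167010 to 69178245) was at 94.3, 97.2 and 106.8 TPM in DMSO and at 96.6, 91.5 and 85.0 TPM with 16'-DEC. The groups overlapped (-0.13 ± 0.0751), and median-of-ratios scaling turned the difference to 0.22, and quantile normalization to 0.099. CCNB2 (ENSG00000157456, chromosome 15, 59105078 to 59125045) was at 43.2, 48.1 and 46.3 TPM in DMSO and at 28.4, 30.8 and 30.4 TPM with 16'-DEC, 1.54 times lower without overlap (-0.60 ± 0.0564). CCNA2 (ENSG00000145386, chromosome 4, 121816444 to 121823933) was at 49.96, 49.94 and 51.3 TPM in DMSO and at 15.8, 17.9 and 16.5 TPM with 16'-DEC. It was 3.02 times lower (-1.54 ± 0.0513), the largest difference among the 4 substrates.

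The proportions among the cyclins differed between the groups. CCNB1 exceeded CCNA2 by a ratio of 1.89, 1.95 and 2.08 in DMSO and of 6.13, 5.13 and 5.16 with 16'-DEC. CCNB1 exceeded CCNB2 by 2.18, 2.02 and 2.31 in DMSO and by 3.40, 2.97 and 2.80 with 16'-DEC. The 2 B-type cyclins together were at 145.3 ± 7.78 TPM in DMSO and 120.9 ± 4.93 TPM with 16'-DEC (SD, n = 3 each). Their partner CDK1, the kinase of mitotic entry, was at 282 ± 14.2 and 26.5 ± 0.554 TPM (SD, n = 3 each). The ratio of CCNB1 to CDK1 was thus 0.334, 0.328 and 0.399 in DMSO and 3.63, 3.38 and 3.28 with 16'-DEC. PTTG1 exceeded CCNA2 by 1.99, 2.27 and 2.17 in DMSO and by 8.63, 6.94 and 8.14 with 16'-DEC, while its ratio to CCNB1 had a mean of 1.09 ± 0.0691 in DMSO and 1.45 ± 0.117 with 16'-DEC (SD, n = 3 each). After the GC and length adjustment the difference of PTTG1 minus that of CCNB1 turned from 0.41 to -0.18, that of PTTG1 minus CCNA2 was 1.04 (1.82 as deposited) and that of CCNB1 minus CDK1 2.49 (3.23 as deposited).

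**Figure D2:**
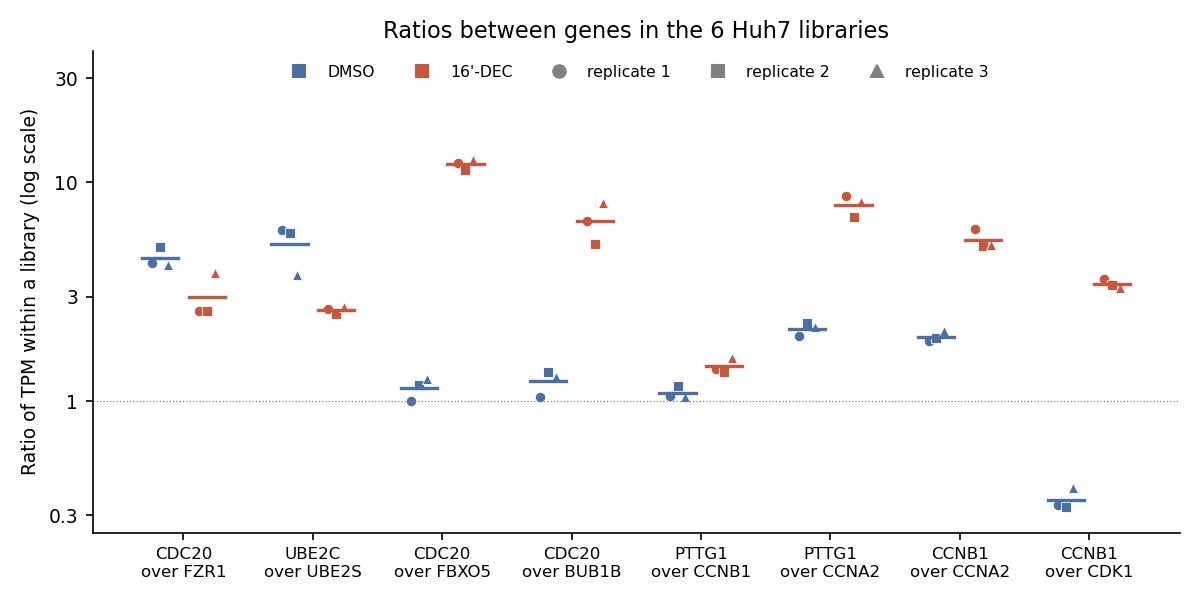
Ratio of TPM of pairs of genes within each library (log axis); symbols are the replicates, lines the mean of 3 libraries, blue for DMSO and red for 16'-DEC. In TPM as deposited the groups do not overlap in any of these pairs. Where 1 gene of a pair was higher and the other lower in all treated libraries, this follows from the values that chose the genes. CDC20 over FBXO5 has a mean of 1.15 in DMSO and 12.1 with 16'-DEC, and CCNB1 over CDK1 of 0.354 and 3.43. After GC and length adjustment the log2 difference of PTTG1 minus that of CCNB1 turns from 0.41 to -0.18.

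In DMSO the order of mean levels was PTTG1, CCNB1, UBE2C, CCNA2, CCNB2, CDC20, FBXO5, BUB1B, UBE2S and FZR1, from 108 down to 8.39 TPM. PTTG1 overlapped with CCNB1 and CCNB1 with UBE2C, as did CDC20 with FBXO5 and FBXO5 with BUB1B, while the other neighbours did not. With 16'-DEC the first 3 kept their order and no longer overlapped, CDC20 was next, and FBXO5 was last at 3.78 TPM. CCNB2 and UBE2S overlapped there, as did CCNA2 and FZR1. The 10 genes summed to 528.6 ± 22.9 TPM in DMSO and 449.2 ± 14.8 TPM with 16'-DEC (SD, n = 3 each). In 5 of the 10 the treated libraries were all lower and in 4 all higher, against 51.0% and 24.3% of tested genes, and since this comparison chose the genes nothing is read from these shares. Their median log2 difference was -0.21 beside -0.31 over all tested genes.

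Reads of near-identical copies could be shared with some of these genes. The securin copies PTTG2 and PTTG3P were listed at 0 in at least 5 of 6 libraries, with a highest value of 0.115 TPM. The copy CDC20P1 reached at most 0.031 TPM, UBE2SP1 0.276 TPM and UBE2CP2 0.875 TPM. Of the related genes, CDC20B was listed at 0, CCNB3 and CCNA1 were under 0.1 TPM, and FBXO43 (EMI2), the FBXO5 relative known from meiosis, was at 3.98, 3.41 and 3.26 TPM in DMSO and at 0.717, 0.772 and 0.681 TPM with 16'-DEC. Exons of CCNA2 overlap those of EXOSC9 on the other strand by 254 bases and exons of FZR1 those of MFSD12 by 70 bases. Strand use is not stated, so reads in these stretches cannot be assigned. The read-through gene BUB1B-PAK6 was listed at 0.

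The differences of the 10 genes were ordered much as the GC content of their transcripts. FBXO5, with the largest difference, had the lowest GC content (37.9%), and FZR1, at the other end, the highest (64.0%). Over all genes the median difference was -1.43 for the 1568 tested genes within 2 percentage points of the GC content of FBXO5 and 0.25 for the 959 around FZR1. CDC20, at 57.9% GC, was at 0.28 where the 1636 genes of like GC content had a median of 0.23. PTTG1, at 49.2% GC, was at 0.28 where such genes had a median of -0.17 (1723 genes). CCNB1, CCNA2 and BUB1B have nearly equal GC contents of 43.1%, 42.1% and 43.2%, and their differences of -0.13, -1.54 and -1.99 stood beside medians of -0.78, -0.90 and -0.77. These 3 genes thus spread widely at nearly the same GC content.

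**Figure D3:**
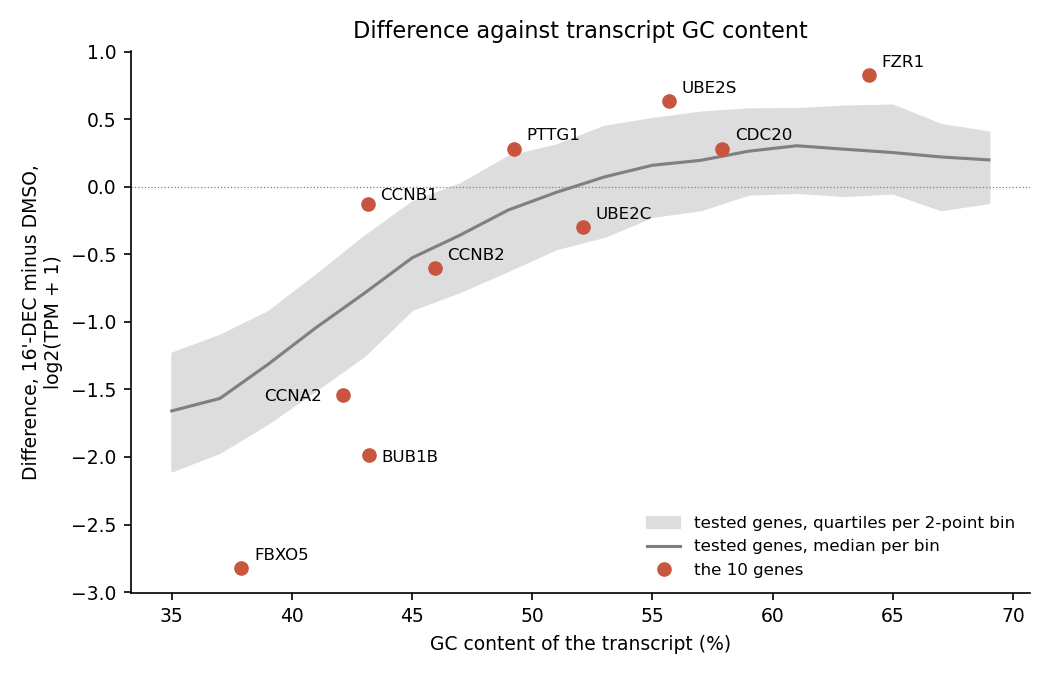
Log2 difference (16'-DEC minus DMSO, log2(TPM + 1)) against transcript GC content in percent for the 10 genes (red), with the median (line) and quartiles (band) of all tested genes in bins of 2 percentage points. CDC20 lies near the median of genes of like GC content, PTTG1, CCNB1, UBE2S and FZR1 lie above it, and UBE2C, CCNB2, CCNA2, BUB1B and FBXO5 below. Of those below it, UBE2C and CCNB2 lie within the quartile band.

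After an adjustment of each library for GC content and transcript length, which also re-centres each library, CDC20 was at -0.0042, CCNB1 at 0.57 and PTTG1 at 0.39. FBXO5 was at -1.55, BUB1B at -1.17, CCNA2 at -0.65, UBE2C at -0.32 and CCNB2 at -0.26, while FZR1 was at 0.69 and UBE2S at 0.46. FBXO5, BUB1B, CCNA2 and CCNB2 were thus below 0, and PTTG1, UBE2S and FZR1 above 0, as deposited, with both scalings and after this adjustment. CDC20, CCNB1 and UBE2C changed side in at least 1 of these. The part of GC content in the differences was not tested.

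**Figure D4:**
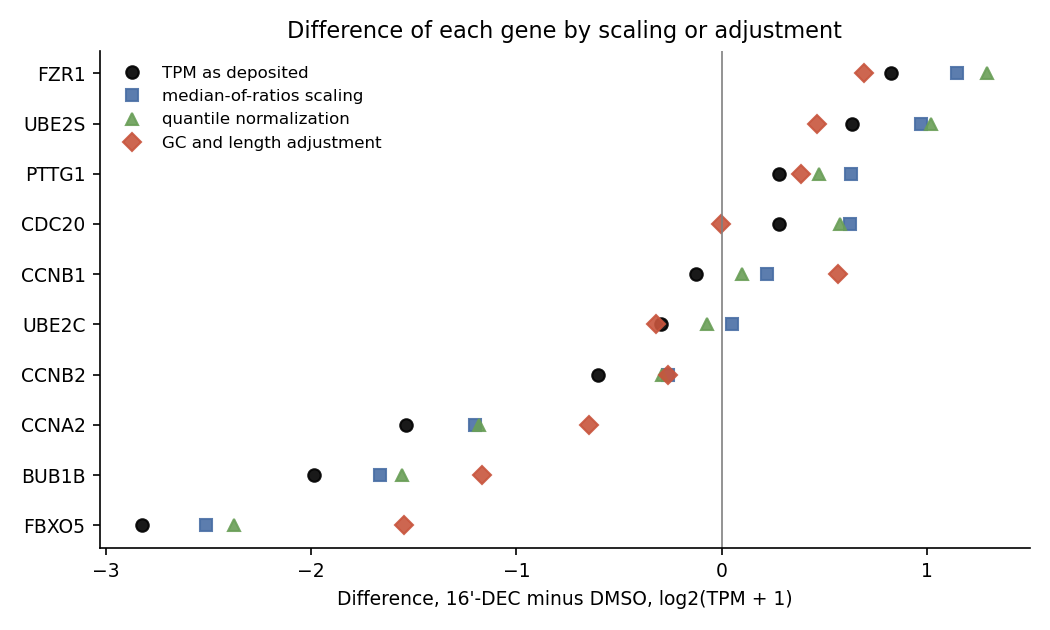
Log2 difference of each gene (16'-DEC minus DMSO, log2(TPM + 1)) with TPM as deposited (black), median-of-ratios scaling (blue), quantile normalization (green) and adjustment for GC content and transcript length (red). CDC20, CCNB1 and UBE2C have values on both sides of 0, and the other 7 genes keep their side.

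The subunits of the APC/C itself mostly fell in the TPM as deposited, but not after GC adjustment. Genes were tested with limma on log2(TPM + 1), with Benjamini-Hochberg adjustment over all 14275 genes and a threshold of 0.05, by which 48.9% of tested genes (6974) were lower and 22.7% (3236) higher. The split was 5376 lower and 5290 higher with median-of-ratios scaling and 4748 lower and 5990 higher with quantile normalization. Of the 14 core subunits, all measured, 9 fell, 1 rose and 4 did not pass (median -0.47). ANAPC13, a small subunit, fell from 147.2 ± 10.2 to 51.5 ± 1.93 TPM (-1.50 ± 0.0771 SE, adjusted p = 4.78e-07). ANAPC10, which takes part in binding substrates (-1.48), ANAPC4, a scaffold subunit (-1.44), and CDC27, a subunit that binds the coactivators (-1.25), fell as well (adjusted p from 1.17e-06 to 2.69e-06). The other 5 that fell were CDC23 (-0.76), ANAPC16 (-0.61), ANAPC1 (-0.51), CDC26 (-0.44) and ANAPC7 (-0.29), of which GC adjustment turned the first 4 to 0.026, 0.018, 0.12 and 0.13 and median-of-ratios scaling turned ANAPC7 to 0.050. ANAPC7 had an adjusted p of 0.0249, but with replicate 2 or 3 of either group left out, 1 at a time, it missed the threshold (adjusted p from 0.0643 to 0.0864). ANAPC11, the RING subunit at which ubiquitin is transferred, rose from 67.9 ± 9.26 to 94.8 ± 8.80 TPM (0.48 ± 0.114 SE, adjusted p = 0.0045). Its partner in the catalytic core, ANAPC2, had 11.9 ± 1.01 TPM in DMSO and 12.8 ± 0.652 TPM with 16'-DEC (SD, n = 3 each), which missed the threshold (adjusted p = 0.355 over all genes, limma), as did ANAPC5, CDC16 and ANAPC15. The 14 subunits summed to 886.8 ± 14.6 TPM in DMSO and 614.0 ± 18.2 TPM with 16'-DEC (SD, n = 3 each). After GC adjustment, when 34.5% of genes were called higher and 31.7% lower, 3 subunits were higher and 3 lower, with a median of 0.067. CDC27 and CDC16 were then higher, at 0.32 and 0.35, ANAPC13 was still lower at -1.07, and ANAPC11 was at 0.22. ANAPC10 was at -0.18 and missed the threshold (adjusted p = 0.0576, limma). With median-of-ratios scaling 5 subunits were higher and 6 lower, and ANAPC1 and CDC26 missed the threshold.

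Of 12 spindle checkpoint genes besides BUB1B, 9 fell, 2 rose and 1 did not pass (median -1.54, -0.53 after GC adjustment). With either median-of-ratios scaling or quantile normalization 7 were lower and 3 higher. Part of this list and of the next were among the mitotic genes against which CDC20 and PTTG1 were set apart. All the lists, core subunits included, were chosen with earlier results of these data known, so the direction of their genes is not independent evidence. TTK (MPS1), the kinase that starts checkpoint signalling, fell from 28.9 ± 1.57 to 2.87 ± 0.365 TPM (-2.96 ± 0.102 SE, adjusted p = 1.17e-07, limma; -1.49 after GC adjustment). MAD2L1 (MAD2), which joins BUB1B and CDC20 in the checkpoint complex, had a difference of -2.38, KNTC1 (ROD) of -2.23 and the kinase BUB1 of -1.61, and all 3 fell (-1.04, -0.97 and -0.76 after GC adjustment). BUB3, the direct partner of BUB1B, was by contrast at 133.8 ± 7.67 TPM in DMSO and 154.3 ± 7.47 TPM with 16'-DEC (0.20 ± 0.0744 SE, adjusted p = 0.0338, limma; 1.34 after GC adjustment). With replicate 1 or 2 of either group left out, 1 at a time, BUB3 missed the threshold (adjusted p from 0.0513 to 0.113). MAD1L1 rose by 0.32 (adjusted p = 0.012), a difference that GC adjustment reduced to 0.076 and that then missed the threshold.

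Of 26 other APC/C substrates, 22 fell, 0 rose and 4 did not pass (median -0.74, -0.67 after GC adjustment). CENPF, DLGAP5, CKAP2 and HMMR, which act at kinetochores or on spindle microtubules, had the smallest p of these, with differences of -3.51, -2.60, -2.52 and -3.21 (adjusted p from 1.03e-07 to 1.17e-07, limma). After GC adjustment they were at -2.30, -1.28, -1.13 and -1.71. The 4 that did not pass were PLK1, TK1, BIRC5 and CKS1B, named after their values were seen. PLK1, a mitotic kinase, was at 73.2 ± 5.19 and 74.3 ± 9.37 TPM, and BIRC5 (survivin) at 31.7 ± 1.85 and 31.9 ± 1.33 TPM (SD, n = 3 each). In the TPM as deposited CDC20 and PTTG1, which are not in this list, were thus not the sole APC/C substrate genes that did not fall. Among the members, CCNB1 overlapped between the groups. After GC adjustment PLK1 (-0.24) and TK1 (-0.40) were called lower and CKS1B (0.70) higher, while BIRC5 (0.017) missed the threshold. With median-of-ratios scaling 16 of the 26 substrates were lower and 3 higher, and quantile normalization gave 17 lower and 4 higher. FOXM1, a transcription factor of G2/M genes, fell by 0.47 (adjusted p = 0.00105), whereas median-of-ratios scaling left -0.14, which missed the threshold.

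Of 14 genes of separase, of cohesin and of factors that act on cohesin, all 14 fell (median -1.79). After GC adjustment 12 were lower and 1 higher (median -0.61). With either median-of-ratios scaling or quantile normalization 11 were lower and 0 higher. STAG2 and SMC3, subunits of the cohesin ring, fell from 82.7 ± 2.72 to 12.4 ± 1.22 TPM and from 53.7 ± 2.80 to 8.68 ± 1.53 TPM (SD, n = 3 each). ESCO1, which acetylates cohesin, (-2.58) and NIPBL, the cohesin loader (-2.28), fell as well (adjusted p from 1.17e-07 to 3.53e-07 for these 4, limma). Separase itself (ESPL1) was at 5.51 ± 1.20 and 3.55 ± 0.910 TPM (-0.52 ± 0.179 SE, adjusted p = 0.0274, limma). ESPL1 missed the threshold when DMSO replicate 3 or any of 16'-DEC replicates 2 and 3 was left out (adjusted p from 0.0622 to 0.0996), and quantile normalization gave 0.0026. PTTG1 exceeded ESPL1 by 20.7, 23.5 and 16.1 in DMSO and by 30.5, 34.7 and 51.0 with 16'-DEC.

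Of 17 genes listed under CDK1 regulation, CDK1 itself, E-type cyclins and phosphatase genes among them, 12 fell, 3 rose and 2 did not pass (median -0.49). After GC adjustment 9 were lower and 6 higher (median -0.20). CDK1 (-3.36), CCNE2 (-2.32), a cyclin of S phase entry, and MASTL (Greatwall, -1.33), the kinase that restrains the phosphatase PP2A in mitosis, were among those that fell. CCNE2 was at 0.480 ± 0.0529 TPM with 16'-DEC (SD, n = 3), so its difference depended on the pseudocount (-3.49 with 0.1 TPM and -1.06 with 5 TPM). After GC adjustment these 3 were at -1.92, -0.85 and -0.50. The phosphatase genes PPP1CA and PPP2R1A rose by 0.91 and 0.70, and ENSA, a substrate of MASTL, by 0.25 (adjusted p from 1.19e-05 to 0.00598, limma), while PPP1CC fell by 0.89, a difference that turned to 0.19 with GC adjustment. With median-of-ratios scaling 7 genes of this list were lower and 4 higher, and quantile normalization gave 7 lower and 6 higher. Of 19 transcription regulators of the cell cycle, among them factors of the CHR, CCAAT and E2F motifs above, 17 fell, 1 rose and 1 did not pass (median -0.89, -0.48 after GC adjustment). NFYB, a subunit of the CCAAT factor NF-Y, (-2.38), LIN9, a subunit of the MuvB complex (-2.39), RB1 (-2.22) and TFDP1, the partner of E2F proteins (-1.01), were among those that fell (adjusted p from 1.28e-07 to 2.73e-06, limma). After GC adjustment they were at -0.84, -1.31, -0.71 and -0.69. Of the 19 regulators, 12 were lower and 2 higher with either median-of-ratios scaling or quantile normalization. LIN37, another MuvB subunit, rose by 0.81 (0.52 after GC adjustment), and MYBL2, which joins MuvB in G2/M transcription, fell by 0.32, against 0.018 by median-of-ratios scaling and 0.011 by quantile normalization.

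**Figure D5:**
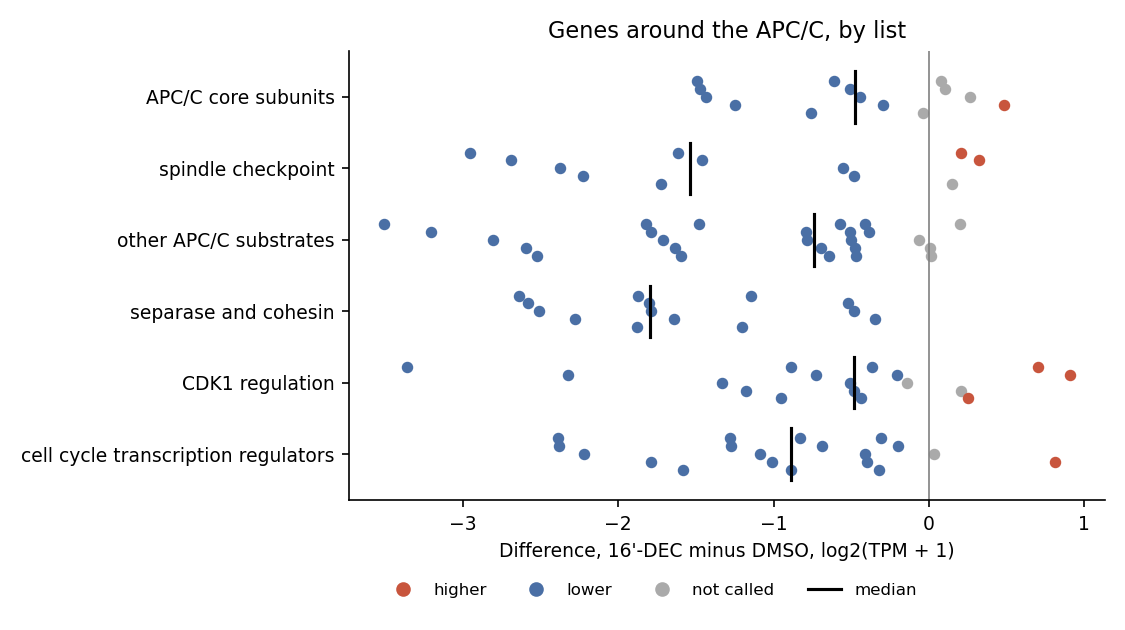
Log2 difference (16'-DEC minus DMSO, log2(TPM + 1)) of each gene of 6 lists around the APC/C; each point is a gene, red where it was called higher, blue lower and grey neither (limma), and the black line is the list's median. In TPM as deposited all 14 genes of separase and cohesin are lower, while 1 of the 14 APC/C core subunits, ANAPC11, is higher.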

How the data were processed

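The authors deposited 1 table of TPM values with 1 column for each of 6 libraries, which were grouped by the titles in the labels. HISAT2 2.0.1, HTSeq 0.6.1, cutadapt 1.9.1, DESeq2 and GRCh38 appear, without a role, in the submitters' processing notes. The annotation, gene lengths and strand use behind the table were not given in the sources used here, and TPM keep no depth. A filter kept genes averaging 1 TPM or more over the libraries. They were compared on log2(TPM + 1) in R 4.3.3 with limma 3.58.1 (2-sided, mean trend in eBayes, Benjamini-Hochberg), after the fit was tested on simulated data. The members and lists were chosen with earlier results of these data known. Named genes are the members and their copies, every core subunit, per other list up to 4 genes of smallest p in the main direction and 3 in the other, and CDK1, ESPL1, MAD2L1, BUB1, MYBL2 and FOXM1. Outside this rule PLK1, TK1, BIRC5 and CKS1B were named after their values were seen. Marker genes and genes that overlap members were named as well. GC content, length and positions came from GENCODE 29 for 93.1% of tested genes, using 1 transcript each (APPRIS principal first, then basic, then longest). For the GC adjustment, natural splines of GC content and log2 length (5 degrees of freedom each) were subtracted from the deviations of each library. Where RefSeq gives several promoters, that nearest the GENCODE start was used, or one at most 120 bases upstream of it. At most 0.0692% of values of 1 TPM or more were identical between any 2 libraries, so no column was a copy of another. Each library was counted as a replicate, although the labels do not say whether they came from separate cultures. Plots were made in Python 3.11.15 with matplotlib 3.10.9.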

Additional observations from a re-analysis of the deposited data

How the results depend on the processing

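The alternatives were pseudocounts of 0.1 and 5 TPM, no filter on low values or a mean of 5 TPM, 2 scalings, the GC and length adjustment, the replicate number as a block, no mean trend and leaving out each library. Counts are of genes called by limma, beside those of the report. With median-of-ratios scaling 5290 of all tested genes were higher (3236 as deposited), as were 5 core subunits, 3 other substrates and 2 transcription regulators, and 7 genes of CDK1 regulation were lower. Log2 differences turned for UBE2C (0.050), CCNB1 (0.22), CDC16 (0.31), ANAPC7 (0.050) and MYBL2 (0.018). With quantile normalization 5990 genes were higher, as were 5 core subunits, 4 other substrates, 6 genes of CDK1 regulation and 2 transcription regulators, and 7 of CDK1 regulation were lower. CCNB1 (0.099), CDC16 (0.20), ANAPC7 (0.016), ESPL1 (0.0026) and MYBL2 (0.011) turned. Both scalings re-centre the libraries by construction.

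With the GC and length adjustment 4213 genes were lower (6974 as deposited). Then 3 core subunits were higher and 3 lower, and 1 other substrate, 1 gene of separase and cohesin, 6 of CDK1 regulation and 3 transcription regulators were higher. CDC20 (-0.0042), CCNB1 (0.57), ANAPC1 (0.12), ANAPC2 (-0.18), CDC27 (0.32), CDC16 (0.35), CDC23 (0.026), CDC26 (0.13), ANAPC16 (0.018) and PPP1CC (0.19) turned, with the same values when the replicate block was added. The cause was not tested. With the replicate block and this adjustment 3982 genes were lower, 3 core subunits were higher and 4 lower, 1 spindle checkpoint gene, 1 other substrate, 1 gene of separase and cohesin, 6 of CDK1 regulation and 3 transcription regulators were higher, and 7 of CDK1 regulation were lower.

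The replicate block alone left 1 spindle checkpoint gene higher, as did no filter on low values and no mean trend. A pseudocount of 5 TPM or a mean of at least 5 TPM gave 1 other substrate higher. Same-numbered libraries did not deviate together (Pearson's r across genes of 0.0941, -0.182 and -0.0726), so the numbers were not taken as pairs. Leaving out 1 library at a time gave 1 to 2 spindle checkpoint genes and 0 to 1 other substrates higher. Of the named list genes, 247 values in these fits stayed on the same side of the threshold and 11 lost the call, which were of ANAPC7, BUB3 and ESPL1. ANAPC5, which was not called, was at 0.075 with all libraries and at -0.0061 without 16'-DEC replicate 2. All 10 members kept their direction in these 6 fits, with CDC20 from 0.21 to 0.35, PTTG1 from 0.22 to 0.32 and CCNB1 from -0.17 to -0.073. For all members but CCNB1 the groups did not overlap, so leaving out 1 library could not turn their differences. TPM give no depth, so counting error could not be set beside the spread of libraries.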
